A study of Solenopsis invicta with 52 samples.

Results

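The gasters of fire ant workers from the 2 kinds of colony were compared at one genotype. Of the 52 RNA-seq libraries of the series, 12 entered the comparison itself: the 6 gaster libraries of group pBB and the 6 of group mBB, taken by the tissue and group in their labels. The gaster, the swollen rear of the ant's body behind the waist, holds fat body, gut and venom gland. All 12 workers were minor workers of Solenopsis invicta with the SB/SB genotype. Group mBB held workers of monogyne origin that spent their adult life in monogyne hosts. Group pBB held workers of polygyne origin that spent it in polygyne hosts. Both groups were moved as dark pupae into a host colony of 250 marked workers from another stock colony, with 1 SB/SB queen in a monogyne host and 2 egg-laying SB/Sb queens in a polygyne host. Sampling followed after 16 days, when the adults were 14 to 16 days old and weighed 0.6 to 0.9 mg. The groups therefore differed in origin and host together, and in this comparison the effects of the colony of rearing and of the adult host cannot be told apart. Another SB/SB group of 6 gasters, mpBB, had monogyne origin and polygyne hosts and was placed between them. Group pBL held 6 gasters of SB/Sb workers of polygyne origin and polygyne hosts. Each library came from 1 worker, and within a treatment no stock colony was a donor or a host more than once, per the labels' protocols.

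The social form of a fire ant colony follows a supergene, a stretch of chromosome in which many genes are inherited together as one of a pair of haplotypes, SB and Sb. Monogyne colonies keep a single egg-laying queen and hold only SB/SB workers. Polygyne colonies keep several queens and hold both SB/SB and SB/Sb workers, so that SB/SB workers occur in both forms and can be compared without a difference in supergene genotype. The files give gene identifiers without names (0 of 16314 identifiers matched the RefSeq table), so no role can be given to any gene here, and no marker genes of gaster tissues could be looked up to check the label.

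The 12 libraries held 30.01 to 69.47 M counts in genes. The lowest was pBB replicate 1, in which 53.4% of reads were unmapped, against 11.7% to 23.1% in the other 11 libraries. In both groups, 3 workers had an individual number under 140 (replicates 1, 3 and 8) and 3 a number over 140 (replicates 5, 6 and 7). What the number marks is not stated in the labels. This number class was a term of the fit, as planned for the comparison. Far more genes were called for it than for social form, 5252 of 11574 tested genes (45.4%). A called gene had an adjusted p under 0.05 in the quasi-likelihood test of edgeR. On the first principal component of the 12 libraries, which held 17.9% of the variance, the 6 libraries over 140 lay at 4.87 to 25.1 and those under 140 at -37.8 to 9.39. Only replicate 8 of each group, numbered 77 in mBB and 99 in pBB, reached the range over 140, at 5.49 and 9.39. The other libraries under 140 lay at -8.13 or lower, so the class under 140 was not uniform. The mBB libraries spanned -32.0 to 25.1 and the pBB libraries -37.8 to 14.8 on that axis.

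With the number class in the fit, SB/SB gasters of the 2 social forms differed in 141 of 11574 tested genes (1.22%) at an adjusted p of 0.05 by edgeR. Of these, 90 (0.778%) were higher and 51 (0.441%) lower in pBB. Most differences were small: the median absolute log2 fold change was 0.49, against 0.16 over all tested genes, and 73 of the 141 were under 0.5 while 18 were over 1. The range ran from 0.21 to 4.98. The called genes were well expressed, with a median of 5.63 on the mean log2 CPM scale, where CPM is the count of a gene scaled to the TMM-adjusted size of its library, against 4.16 for all tested genes. The level was above 1 on that scale in 135 of the 141. The genes of smallest p did not stand far from the threshold. The lowest adjusted p was 0.0143, 19 genes lay under 0.02, 65 under 0.04, and 204 under 0.06. At an unadjusted p under 0.05 there were 2057 genes (17.8%), against 578.7 expected with no differences. The mpBB and pBL gasters were also in this fit and entered its estimate of the spread. In a fit of the pBB and mBB gasters alone, 6 genes passed, 5 of them among the 141. Because these are whole gasters, fewer cells of a type and less RNA per cell cannot be told apart.

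**Figure D1:**
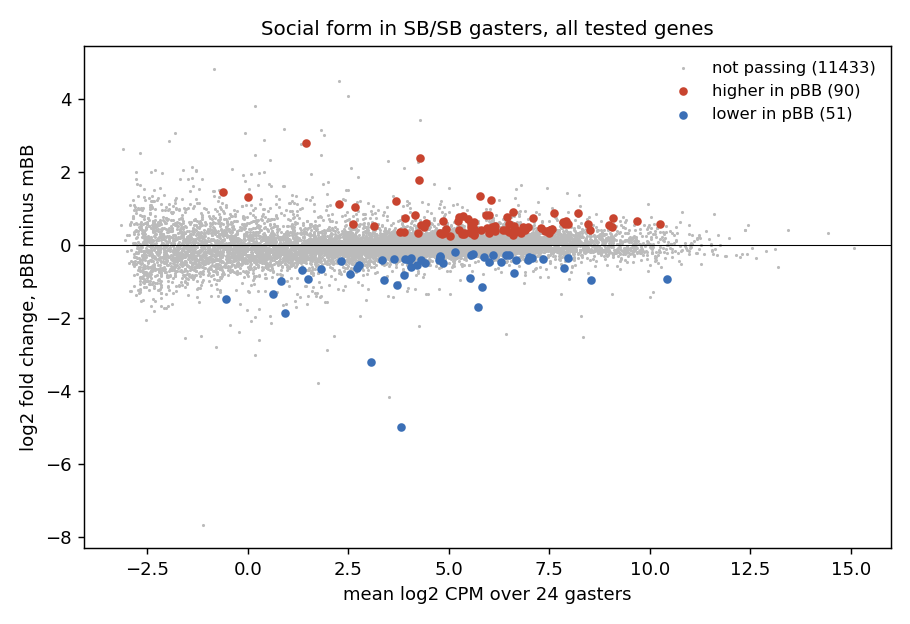
Log2 fold change of pBB over mBB gasters (vertical axis) against the mean log2 CPM over the 24 gasters (horizontal axis), 1 point per tested gene. The 90 genes higher and the 51 lower in pBB are coloured; most lie within 1 log2 unit of 0 and above 1 on the mean log2 CPM scale.

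The libraries of the 2 groups were fully apart in 38 of the 90 higher genes and in 20 of the 51 lower ones. Over all tested genes, every pBB gaster lay above every mBB gaster in 91 genes (0.786%) and below in 48 (0.415%). The 90 higher genes together reached 13040 ± 728 CPM in pBB and 8902 ± 567 CPM in mBB gasters (SD, n = 6 each). The 51 lower genes summed in pBB to 3235 ± 623 CPM against 5229 ± 634 CPM in mBB gasters. These sums describe the genes that the test chose and add no evidence. In the gene order of the files, 3 pairs of adjacent rows were called in one direction, with no longer run. The number class was also called in 51 of the 141 genes. Of the 90 higher genes, 21 were higher and 8 lower in workers numbered over 140. Of the 51 lower genes, 1 was higher and 21 were lower. Over all 11574 tested genes the class called 2549 higher and 2703 lower.

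Among called genes with a mean log2 CPM over 1, the 2 with the largest falls and the 2 with the largest rises are described by library, in the order of replicates 1, 3, 5, 6, 7 and 8. SINVBB1_04755 had the smallest p of the 4. It was at 16.8, 22.8, 9.68, 24.4, 16.2 and 10.9 CPM in the mBB gasters. In the pBB gasters it was at 1.13, 2.83, 0.742, 3.62, 0.868 and 1.75 CPM. All 6 pBB gasters lay below all 6 mBB gasters, in both number classes. The log2 fold change was -3.21 ± 0.55 (SE), with an adjusted p of 0.0143 by edgeR. The mpBB gasters, replicates 10, 11, 13, 14, 15 and 17, were at 6.14, 7.44, 1.98, 14.7, 8.91 and 16.4 CPM. They overlapped both groups, with 4 below every mBB gaster and 5 above every pBB gaster. The call ended without mBB replicate 6, at a log2 fold change of -3.00 and an adjusted p of 0.0577, and in fits of either number class alone, where the log2 fold change was -3.14 and -3.27. It also ended without both the number class as a term and pBB replicate 1, at -3.10 (adjusted p = 0.096).

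SINVBB1_02470 had the largest fall, and it was a gene that was on in some workers and nearly off in others. It was at 64.4, 48.7, 0.441, 0.592, 40.9 and 0.400 CPM in the mBB gasters. In the pBB gasters it stayed between 0.403 and 1.13 CPM. So 3 of 6 mBB gasters and none of 6 pBB gasters were over 10 CPM, while the other 3 mBB gasters lay within or just below the pBB range. The log2 fold change was -4.98 ± 1.24 with an adjusted p of 0.0494 by edgeR, and the call ended in 26 of 34 alternative fits. Leaving out 1 library kept it only without mBB replicate 5 or 8, mpBB replicate 13 or pBB replicate 6, and otherwise gave adjusted p values up to 0.120. Of the mpBB gasters, 4 of 6 were over 10 CPM, at 35.6, 43.1, 16.1 and 76.2 CPM, and the 6 SB/Sb gasters of pBL were between 0.352 and 1.76 CPM.

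SINVBB1_02469, the gene in the row next to it, was on in the same 3 mBB and the same 4 mpBB workers. It was at 17.6, 30.9 and 46.0 CPM in those mBB gasters and at 0.623 to 0.999 CPM in the other 3. The pBB gasters held 0.662 to 1.09 CPM and the pBL gasters 0.807 to 1.74 CPM. Its log2 fold change for social form was -4.16 ± 1.06, which did not pass (edgeR adjusted p = 0.053).

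SINVBB1_04374 rose with no overlap of the groups. It was at 5.52, 1.78, 5.51, 5.22, 6.80 and 13.2 CPM in the mBB gasters. In the pBB gasters it was at 24.4, 15.4, 78.9, 17.8, 44.0 and 21.6 CPM, each above every mBB gaster. The log2 fold change was 2.39 ± 0.54 (adjusted p = 0.0394 by edgeR). Without pBB replicate 5, the highest library, it was 1.96 and did not pass (adjusted p = 0.0716), and the call also ended without mBB replicate 1, 3, 5, 6 or 7 and without pBB replicate 1, 7 or 8, with adjusted p values up to 0.109. The mpBB gasters were at 5.48 to 15.9 CPM, and 5 of the 6 lay below every pBB gaster.

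SINVBB1_07156 had the largest fitted rise, which rested on 3 workers. The pBB gasters were at 16.8, 0.776, 1.48, 0.786, 8.60 and 13.7 CPM and the mBB gasters at 0.545 to 2.09 CPM. Only replicates 1, 7 and 8 of pBB lay above every mBB gaster. The log2 fold change was 2.80 ± 0.68 (edgeR adjusted p = 0.0484), and the call ended in 25 of 34 alternative fits. Leaving out 1 library kept it only without mpBB replicate 10 or 11 or pBB replicate 3 or 6, and otherwise gave adjusted p values up to 0.130. This gene is uncertain, because 10056 of its strand counts in gaster lay on the opposite strand and 3391, or 25.2%, on the strand counted. With counts of both strands the log2 fold change was 1.00 (adjusted p = 0.0494).

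The number of calls depended on single libraries far more than the sizes did. Leaving out 1 mBB gaster gave 98 (replicate 1), 30 (replicate 3), 52 (replicate 5), 0 (replicate 6), 73 (replicate 7) and 51 calls (replicate 8). Leaving out 1 pBB gaster gave 16 (replicate 1), 66 (replicate 3), 37 (replicate 5), 393 (replicate 6), 40 (replicate 7) and 48 calls (replicate 8). Leaving out mpBB replicate 11, 13, 14, 15 or 17, none of which is in either group compared, gave 79, 84, 73, 82 and 73 calls, and without replicate 10 the count stayed within 1.5 times of 141. None of the 141 calls was kept in all of these fits. Yet in the 12 fits without a pBB or mBB gaster, each of the 141 genes kept its sign and an unadjusted p under 0.05, and their median absolute log2 fold change stayed between 0.46 and 0.55. These genes were chosen in the same libraries, so this describes the choice and is no separate test. Without pBB replicate 1, the library with most unmapped reads, 15 of the 16 calls were among the 141. With the share of unmapped reads as a further term there were 19 calls, 18 of them among the 141. Without the number class as a term only 7 genes passed, 4 higher and 3 lower, all among the 141, and 1506 had an unadjusted p under 0.05. DESeq2 called 556 genes, 317 higher and 239 lower, with all 141 among them.

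The 2 number classes hold different workers, so they give 2 separate looks at the same comparison, with 3 workers per group in each. In workers numbered under 140 alone, 1298 of 11574 genes (11.2%) had an unadjusted p under 0.05 by edgeR, and over 140 alone 1214 (10.5%) did. With adjustment, 0 genes were called in either class alone. In 1 fit of all 24 gasters with the group differences set free in each class, the classes were less alike. There 5 genes were called under 140, 4 higher and 1 lower, and 0 over 140, with 1978 and 711 genes at an unadjusted p under 0.05. In the fits of each class alone, 215 genes were under 0.05 in both classes. That is 16.6% of the list of 1298 genes under 140 and 17.7% of the list of 1214 over 140. The direction was the same in 211 of the 215, with 138 higher and 73 lower in pBB, and opposite in 4. Of the 1214 genes of the list over 140, 78.6% had the same direction under 140, against 60.7% of all tested genes. Without pBB replicate 1 that share was 69.0%, against 55.4% of all tested genes, and 133 genes were under 0.05 in both classes with the same direction while 19 were opposite. Across the 9076 genes with a mean log2 CPM over 1, the fold changes of the 2 classes had a Spearman rho of 0.31 and a Pearson r of 0.27. Genes are not independent of each other and each class holds only 3 workers per group, so these values are a description.

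**Figure D2:**
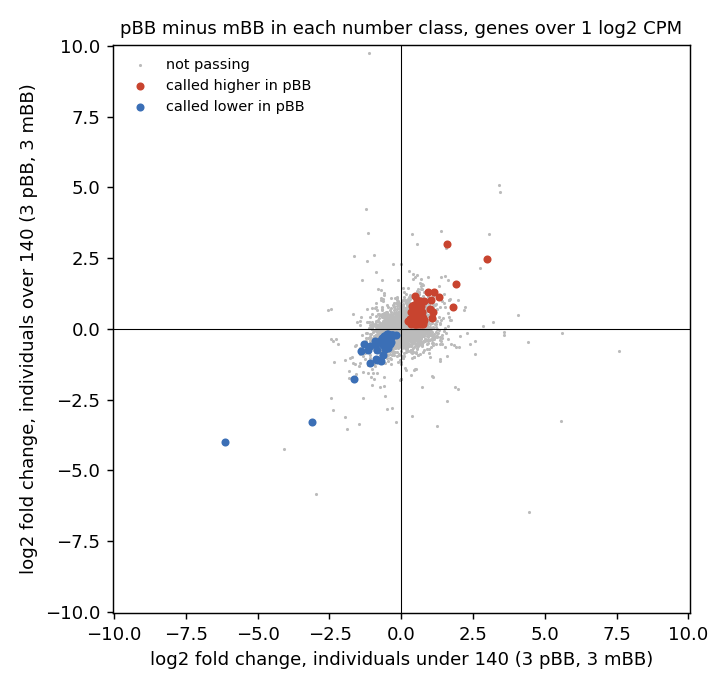
Log2 fold change of pBB over mBB gasters in workers numbered under 140 (horizontal axis) and over 140 (vertical axis), 3 workers per group in each, for the 9076 genes with a mean log2 CPM over 1. The called genes, chosen in the fit of all gasters of both classes, have the same sign in both classes. Among all genes the 2 values are loosely related.

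Whether the social form difference itself differed between the classes was tested directly, and no gene passed an adjusted p of 0.05 (0.00%) by edgeR or DESeq2, with 581 genes at an unadjusted p under 0.05 by edgeR, against 578.7 expected. The median SE of that difference was 0.30 on the log2 scale, against 0.15 for the social form difference. The gene with the smallest p of those more positive over 140, SINVBB1_09461, was at 43.95, 35.01 and 40.7 CPM in mBB gasters numbered under 140 and at 6.10, 4.38 and 6.37 CPM in those over 140. In pBB gasters it was at 5.05, 8.15 and 25.1 CPM under 140 and at 40.3, 32.2 and 26.9 CPM over 140. The order of the groups was thus opposite in the 2 classes, with no overlap in either, and the difference of the log2 fold changes was 4.19 but did not pass (edgeR adjusted p = 0.89). SINVBB1_05611 was next, at 1.32, and SINVBB1_10163 and SINVBB1_09530 were the first in the other direction, at -0.66 and -0.52, each with that same adjusted p. The level of SINVBB1_05611 is uncertain, because 7675 of its gaster strand counts lay on the opposite strand and 14153 (64.8%) on the strand counted.

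The group mean of the cross-fostered mpBB gasters lay between those of the other SB/SB groups on the called genes, with overlap of single libraries. On the mean log2 CPM of the 90 higher genes, relative to the mean of the 12 libraries, mBB lay at -0.30 ± 0.07, mpBB at 0.03 ± 0.10 and pBB at 0.30 ± 0.12 (SD, n = 6 each). On the 51 lower genes the values were 0.37 ± 0.18, 0.04 ± 0.20 and -0.37 ± 0.16. The mBB and pBB values follow from how the genes were chosen. Genes chosen for a gap between 2 groups also tend to hold any other group between them. The mpBB libraries had no part in the sign of a call, but they entered the estimate of the spread. The place of mpBB between the groups is thus a description and no separate evidence. On a scale that sets mBB to 0 and pBB to 1 for each gene, mpBB had a median position of 0.567 over the 141 genes, with quartiles of 0.442 and 0.663. Of the 141 genes, 44 lay between 0 and 0.5 and 95 between 0.5 and 1, with 1 below 0 and 1 above 1. Over all tested genes the median was close, 0.562, but the quartiles were 0.0855 and 1.005, since most genes differ little between the groups and their position is then poorly set. From mBB to mpBB the 90 higher genes differed by a median of 0.27 on the log2 scale, and from mpBB to pBB by 0.21. For the 51 lower genes the medians were -0.30 and -0.21. Each of these steps shares its libraries with the comparison that chose the genes.

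The set means also differed between the number classes within groups (n = 3 each). On the lower genes, the mean log2 value was 0.49 ± 0.13 under and 0.25 ± 0.15 over 140 in mBB (SD), 0.19 ± 0.12 and -0.10 ± 0.16 in mpBB, and -0.33 ± 0.17 and -0.41 ± 0.16 in pBB. The mean was thus lower over 140 in all 3 groups. On the higher genes it was -0.32 ± 0.04 under and -0.28 ± 0.09 over 140 in mBB, -0.05 ± 0.07 and 0.10 ± 0.05 in mpBB, and 0.34 ± 0.10 and 0.26 ± 0.15 in pBB. These differences between classes were not tested over the lists.

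**Figure D3:**
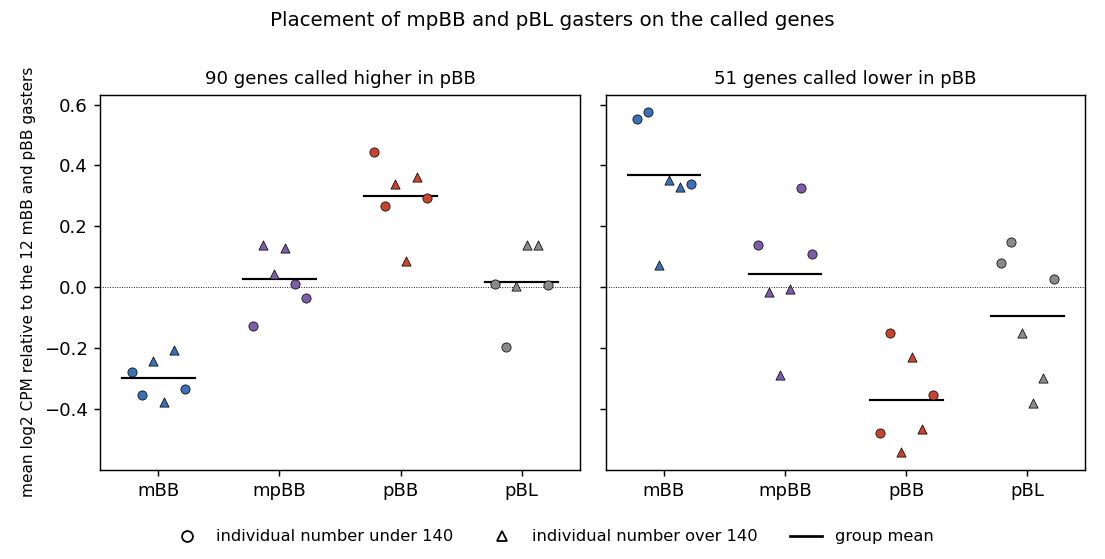
Mean log2 CPM of the 90 genes called higher (left) and the 51 called lower (right) in pBB, relative to the 12 mBB and pBB gasters, for each library of the 4 gaster groups, with circles under 140, triangles over 140 and lines for group means. The group means of mpBB and pBL lie between those of mBB and pBB. Single mpBB and pBL gasters overlap pBB on the higher genes and both groups on the lower genes. The separation of mBB and pBB follows from how the genes were chosen, which also favours a place between them for other groups.

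Tested gene by gene, no gene passed an adjusted p of 0.05 (0.00%) by edgeR for a difference of mpBB from the midpoint of mBB and pBB. At an unadjusted p under 0.05 there were 227 genes, fewer than the 578.7 expected with no differences, and DESeq2 called 1. This contrast does not draw on the difference between mBB and pBB. Among the 141 called genes, 4 had an unadjusted p under 0.05. The steps themselves gave no call either, with 830 genes at an unadjusted p under 0.05 and 0 calls (0.00%) for the adult host, mpBB against mBB. For the colony of origin, pBB against mpBB, there were 467 and 0 (0.00%). With 578.7 expected for each step, the unadjusted count lay above that number for the host and below it for the origin. DESeq2 called 3 and 8 genes. Of the 2 steps, neither was thus shown to be the larger.

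The 2 genes farthest above the midpoint by p were SINVBB1_12864 and the on and off gene SINVBB1_02469, neither of which passed (edgeR adjusted p = 0.9998 for both). SINVBB1_12864 was at 9.58 CPM in mpBB replicate 15 and at no more than 0.0682 CPM in the other 17 SB/SB gasters. All 6 SB/Sb gasters held it, at 4.01 to 8.77 CPM. Its fitted difference of 6.08 from the midpoint turned to -1.42 without that worker and to -2.57 in workers over 140 alone. SINVBB1_02469 was 2.81 ± 0.78 above the midpoint, with 4 of 6 mpBB gasters above 10 CPM. On the lower side, SINVBB1_06613 was at 0.167 to 0.935 CPM in mpBB gasters and 1.79 below the midpoint. In pBB it was at 6.93, 5.28 and 5.04 CPM in replicates 1, 3 and 5 and at 0.0847 to 0.497 CPM in the other 3, while every mBB gaster was under 1 CPM and every pBL gaster was at 7.02 to 12.7 CPM. The mpBB gasters of SINVBB1_12646 were at 5.34 to 8.58 CPM, against 6.45 to 11.6 in mBB and 7.08 to 14.1 in pBB, and its log2 difference from the midpoint was -0.49 ± 0.16.

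The group mean of the SB/Sb gasters of pBL also lay between mBB and pBB on the called genes, at 0.02 ± 0.12 for the higher and -0.10 ± 0.21 for the lower genes (SD, n = 6). As for mpBB, the choice of genes on the gap between mBB and pBB favours such a place, so it is a description. The pBL gasters share origin and host with pBB and differ from it in genotype. Set against mpBB, a contrast that shares no library with pBB against mBB, the 90 higher genes had a median of -0.04 on the log2 scale and 43.3% were positive, against 49.97% of all tested genes. The 51 lower genes had a median of -0.01, and 37.3% were positive.

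The brains of 7 pBB and 7 mBB workers were set beside the gasters. With the number class in the brain fit, no gene of 12006 (0.00%) was called by edgeR, and 566 had an unadjusted p under 0.05, against 600.3 expected. In the fit of all 52 libraries described below, 3 of 13452 genes were called for brain, all higher in pBB. Among them was SINVBB1_06613, at a log2 fold change of 3.65 ± 0.71 (edgeR adjusted p = 0.0246). In the brain fit its adjusted p was 0.167. Of the 90 genes higher in pBB gasters, 82 were tested in brain, and 65 of them (79.3%) had a positive brain fold change, against 48.5% of all genes tested in both. Of the 51 lower genes, 47 were tested and 35 (74.5%) had a negative one, against 51.5%. The brain differences were small, with medians of 0.12 and -0.06. At an unadjusted p under 0.05 there were 7 higher of the 82 and, of the 47, 5 lower and 1 higher, while 304 of all 10661 genes tested in both were higher and 217 lower.

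Most of these brains came from the same workers as the gasters. In the 5 pBB and 5 mBB brains whose worker also gave a gaster, 75.6% of the higher and 21.3% of the lower genes were positive, against 48.2% of all genes. In the 2 pBB and 2 mBB brains of other workers the shares were 61.0% and 61.7%, against 51.05% of all genes. The lower genes thus kept their direction in the first set of brains and did not in the second, which holds few workers.

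Whether the social form difference differed between gaster and brain was tested in 1 fit of all 52 libraries on the unstranded counts, since the brain kit does not mark strand. Of 13452 genes, 1 passed (0.00743%), SINVBB1_04755, the gene with the lowest p of the 4 above. In brain its direction was opposite to that in gaster. The mBB brains were at 4.55 to 55.4 CPM with a median of 17.2 CPM. The pBB brains were at 12.5 to 195.2 CPM with a median of 100.2 CPM, and the lowest pBB brain lay within the mBB range. In brain alone the log2 fold change was 2.04 ± 0.59 and did not pass (edgeR adjusted p = 0.81). The difference between the tissues was -5.20 ± 0.86 on the log2 scale (adjusted p = 0.00336), and it passed in all 16 alternative fits, at adjusted p values up to 0.0152. Brain and gaster libraries were made with different kits, so the levels of the 2 tissues are not compared.

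**Figure D4:**
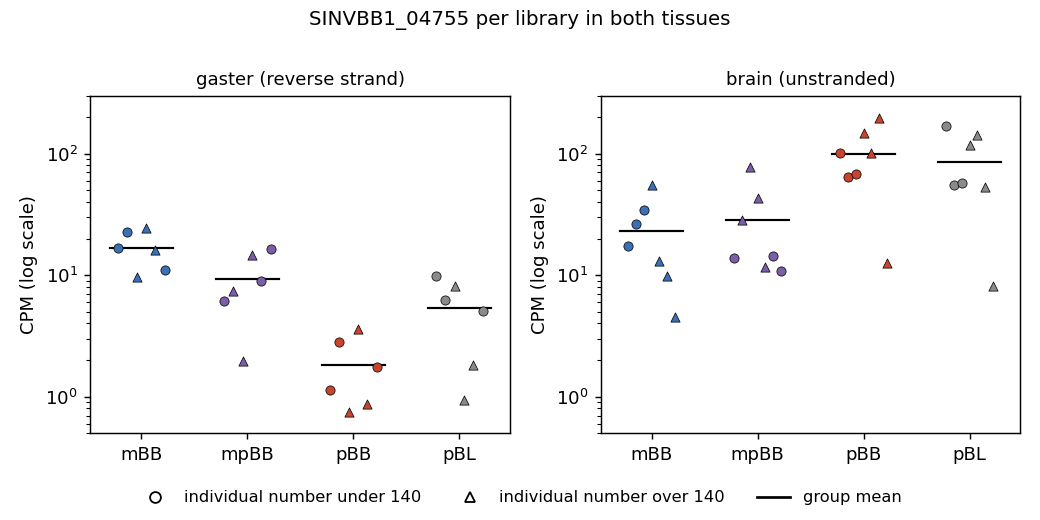
Level of SINVBB1_04755 in each library (CPM, log scale) by group, in gasters (left, reverse-strand counts) and brains (right, unstranded counts), with circles under 140, triangles over 140 and lines for group means. All pBB gasters lie below all mBB gasters, while most pBB brains lie above the mBB brains.

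The next genes by p did not pass. SINVBB1_04374, which rose in pBB gasters, ranged from 1.57 to 5.23 CPM in pBB and from 2.93 to 6.87 CPM in mBB brains, and its difference between tissues was 2.63 ± 0.55 (edgeR adjusted p = 0.108). SINVBB1_01712 was at 0.462 to 30.4 CPM in pBB gasters, where 5 of 6 lay above every mBB gaster, and at most at 1.18 CPM in the mBB gasters and 1.10 CPM in the pBB and mBB brains. Its difference between tissues was 4.12 (adjusted p = 0.224). SINVBB1_04753 lies in the row next to SINVBB1_04755 in the files. In gaster it was also called lower in pBB, at 15.7 to 38.4 CPM against 62.9 to 124 CPM in mBB, with a log2 fold change of -1.71 ± 0.33 (adjusted p = 0.0189). In brain it ranged from 1.77 to 4.04 CPM in pBB and from 1.69 to 4.54 CPM in mBB. Its difference between tissues was -1.92 (adjusted p = 0.108). The brain counts of this gene are uncertain, because its 2 strand columns together held 9273 counts and the unstranded column, which leaves out reads that overlap genes on both strands, 2142.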

How the data were processed

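RNA-seq reads per gene were measured in 52 libraries, of which 24 are gasters. The deposited files hold raw counts per gene in 3 columns, 1 that ignores strand and 1 for each strand, as STAR writes them. Per the submitters' processing notes the authors used Trim Galore, STAR and edgeR. The sources used here give no version, genome build, annotation or setting. Per the labels' protocols, gasters were prepared with a KAPA stranded kit and brains with a SMARTer low-input kit. In the 24 gasters the reverse-strand column held 96.1% to 97.1% of strand counts and was used. Unmapped, multimapped (7.68% to 16.3% of reads in the SB/SB gasters), no-feature and ambiguous rows stayed out of library sizes and tests. Multimapped reads are left out of these counts, so that genes with near-identical copies are uncertain. No 2 gaster libraries held identical counts (0 found).

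The tests were run with edgeR 4.0.16 in R 4.3.3. The filter on expression by group kept 11574 genes. All 24 gasters entered 1 quasi-likelihood fit, with TMM factors, the 4 groups and the number class (individual number under or over 140), at a Benjamini-Hochberg adjusted p of 0.05 over all genes tested and no minimum fold. P-values measure the spread between single workers. The tissue comparison used all 52 libraries and the unstranded column. In it, libraries of 1 worker count as separate samples, and a fit with the worker as a block is among the alternatives. Log2 CPM used a prior count of 2, and principal components the 1000 most variable genes. DESeq2 1.42.0 and sva 3.50.0, with 3 surrogate variables, were alternatives. The script was tested on simulated data. Named genes were, for social form, the largest fold changes among called genes with a mean log2 CPM over 1, and for the other contrasts the smallest p at that level, 2 in each direction because identifiers carry no gene names. For the same reason planned marker lists were not described. The groups, the covariate and the rule were chosen with earlier results of these data known. The replicate numbers shared by mBB and pBB were not taken to pair the samples, since the lowest correlation of same-numbered libraries was 0.0438, under a minimum of 0.1.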

Additional observations from a re-analysis of the deposited data

Results flagged for a closer look

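In groups of 6 or 7 libraries, 9 of 60 sets of values held 1 library far from the rest. The limit used marks about 1 in 20 sets of normally distributed values. Most of the sets are CPM of genes named from these same libraries, so that rate does not apply and the count is a description. Gaster pBB replicate 1 had 53.35% of its reads unmapped. Among levels, mBB replicate 3 had 2.09 CPM and mpBB replicate 11 had 5.22 CPM of SINVBB1_07156 in gaster. The mpBB replicate 15 gaster had 9.58 CPM of SINVBB1_12864. The mpBB replicate 10 gaster had 0.935 CPM of SINVBB1_06613 and 4.00 CPM of SINVBB1_01712. In brain, mBB replicate 3 had 6.87 CPM of SINVBB1_04374 and mBB replicate 4 had 4.54 CPM of SINVBB1_04753. The genes called higher in pBB summed to 11630 CPM in pBB replicate 6, the lowest of its group, and without that library 393 genes passed. The cause of each was not tested.

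The social form difference of SINVBB1_04755 differed between gaster and brain by -5.20 on the log2 scale, in the test of that difference by edgeR.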

How the results depend on the processing

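The count of 141 genes for social form had a different size in most alternative fits. It was 7 without the number class, 44 in the 18 SB/SB gasters, 6 in the 12 pBB and mBB gasters, 0 in workers under 140 alone and 0 in those over 140 alone. It was 556 with DESeq2, 89 with RLE factors and 57 with no filter on low counts. Among alternatives added after seeing the data, it was 258 with DESeq2 without pBB replicate 1, 0 without both the number class and pBB replicate 1, and 19 with the share of unmapped reads as a term. Leaving out 1 library gave 0 to 393. It stayed within 1.5 times with 3 number classes (204), surrogate variables (151, of which 62 were among the 141), a filter of over 1 CPM in 6 gasters (173) and unstranded counts (112). With the replicate number as a block in place of the number class and without mpBB, 119 genes passed, of which 72 were among the 141. Same-numbered mBB and pBB gasters had a mean correlation of 0.146, from 0.0438 to 0.289, against -0.0276 for other pairs. Same-numbered gasters always share a number class, while many of the other pairs do not. With class means removed, their mean was 0.0669 and their lowest -0.0401, against a mean of -0.0335 for other pairs of the same class. Genes at an unadjusted p under 0.05 numbered 1208 to 2302 over all of these fits. The cause of these changes was not tested, beyond that 76 of the 141 genes had an adjusted p between 0.04 and 0.05.

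With DESeq2, 1 gene passed for the midpoint, 3 for the host, 8 for the origin and 6 for the tissue difference. The tissue count was 2 with RLE factors, 2 with the worker as a block over the 10 workers with both tissues, and 1 to 7 leaving out 1 gaster. SINVBB1_12864 reversed its difference from the midpoint without mpBB replicate 15, at -1.42 (up to 6.46 without another library), and in workers over 140 alone, at -2.57. The 4 genes named for social form kept their direction in all 34 alternative fits. SINVBB1_04755 lost its call in 4 of them, SINVBB1_04374 in 15, SINVBB1_07156 in 25 and SINVBB1_02470 in 26, with adjusted p values up to 0.3, 0.492, 0.369 and 0.456.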
